A study of Mus musculus with 18 samples.

Results

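The genes described here are 38 genes for protein folding and secretion in the endoplasmic reticulum (ER), chosen by symbol for what their products do. All 38 were present among the 19780 genes of the LSK data and among the 18428 genes of the CMP data. The study asked how the stem and progenitor cells of the bone marrow differ in lupus. LSK are lineage-negative, Sca-1-positive and c-Kit-positive bone marrow cells, the compartment that holds haematopoietic stem cells and early progenitors, and CMPs are common myeloid progenitors. Gene expression was measured by mRNA sequencing in 12 LSK samples and 6 CMP samples, 3 in each group, all from female mice. F1-P mice were NZB/W F1 mice, the offspring of an NZB and an NZW parent, taken before disease at 12 weeks of age, and F1-L mice were NZB/W F1 mice with lupus, defined by proteinuria, at 28 to 36 weeks. The controls were wild-type C57BL/6 mice of the same ages, B6-Y at 12 weeks and B6-O at 28 to 36 weeks, and they are given for LSK only. The sources name no transgene and no treatment in any group. The older F1 mice differed from the younger in age and in disease, which cannot be told apart within the strain. F1 and C57BL/6 mice differ throughout the genome, so strain and lupus susceptibility cannot be told apart either. The LSK and CMP gates both left out cells with CD11b, Gr-1, Ter119, B220 or CD16/32 on their surface. The labels number the replicates but do not say whether a sample is 1 mouse or a pool, so the p-values measure the spread between these samples.

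Proteins that a cell secretes or places in its membranes enter the ER through the Sec61 translocon, assisted by the translocon-associated protein complex (TRAP), and lose their signal peptide to the signal peptidase complex. In the lumen they are folded by chaperones, of which BiP (Hspa5) is the central member, by lectin chaperones that read N-glycans, and by enzymes that form disulphide bonds or turn proline bonds. Proteins that fail to fold are taken back to the cytosol and degraded, a route called ER-associated degradation. When unfolded proteins accumulate, the sensors Ire1 (Ern1), Perk and Atf6 start the unfolded protein response, which raises most of these genes together. The machinery is present in every cell and is greatly expanded in cells that secrete much protein, such as plasma cells, while stem cells of the marrow are known for low protein synthesis.

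The unfolded protein response acts on many of these genes through a short promoter element, the ER stress response element (ERSE), made of CCAAT and CCACG with 9 bases between them. Both strands of the RefSeq promoter windows of assembly GRCm38.p6, 250 bases before to 50 bases after each start, were searched. Of the 38 genes, 31 had a window, and Sec11c, Ssr2, Atf6, Hyou1, Spcs3, Sec61a1 and Manf had none in the table. An ERSE was found for 8 of the 31 genes (25.8%), against 37 of all 27025 genes with a window (0.137%). Since the response was already known to act on many of these genes through ERSE, the higher share is a description and not a test. The 8 genes were Hspa5, Hsp90b1, Dnajc3, Creld2, Pdia6, Syvn1, Calr and Canx. Its variant ERSE-II, ATTGG and CCACG separated by 1 base, was found for Herpud1 and Dnajb11, against 12 of all genes (0.0444%). None of the 31 genes with a window held both elements. The stretches printed here are the 150 bases before the start and were picked because they hold a whole element. They read 5′ to 3′ in the direction of the gene. The capitals mark the element's letters, and the bases between CCAAT and CCACG are in lower case. Where the element lies on the other strand it reads as CGTGG and ATTGG. The stretches of Calr and Dnajb11 are not printed, since the element of Calr began 162 bases before the start and that of Dnajb11 lay after the start.
Hspa5: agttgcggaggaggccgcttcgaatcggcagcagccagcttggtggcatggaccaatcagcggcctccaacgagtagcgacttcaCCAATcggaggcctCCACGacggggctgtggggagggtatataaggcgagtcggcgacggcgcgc
Hsp90b1: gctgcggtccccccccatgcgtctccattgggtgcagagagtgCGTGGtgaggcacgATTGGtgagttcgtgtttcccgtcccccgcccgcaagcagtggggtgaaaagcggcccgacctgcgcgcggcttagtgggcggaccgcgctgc
Dnajc3: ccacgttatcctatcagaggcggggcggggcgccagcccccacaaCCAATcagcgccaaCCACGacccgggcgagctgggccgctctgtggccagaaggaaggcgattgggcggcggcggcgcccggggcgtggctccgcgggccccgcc
Creld2: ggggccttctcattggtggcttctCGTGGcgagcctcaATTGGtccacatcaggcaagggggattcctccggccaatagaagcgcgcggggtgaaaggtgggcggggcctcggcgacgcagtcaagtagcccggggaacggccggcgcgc
Pdia6: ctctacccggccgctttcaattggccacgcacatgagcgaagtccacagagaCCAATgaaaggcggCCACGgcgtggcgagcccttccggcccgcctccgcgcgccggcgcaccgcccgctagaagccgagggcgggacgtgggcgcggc
Syvn1: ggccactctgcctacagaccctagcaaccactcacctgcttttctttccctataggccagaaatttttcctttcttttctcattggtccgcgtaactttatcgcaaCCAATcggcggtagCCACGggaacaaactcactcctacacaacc
Canx: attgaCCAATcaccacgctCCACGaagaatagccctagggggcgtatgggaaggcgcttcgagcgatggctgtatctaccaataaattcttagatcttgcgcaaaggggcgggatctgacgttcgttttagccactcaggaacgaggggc
Herpud1: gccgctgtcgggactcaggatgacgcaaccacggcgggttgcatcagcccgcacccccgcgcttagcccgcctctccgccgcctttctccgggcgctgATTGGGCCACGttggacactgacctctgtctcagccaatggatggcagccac

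These stretches lie at chr2:34771940-34772089, plus strand for Hspa5, at chr10:86705445-86705594, minus strand for Hsp90b1 and at chr14:118937782-118937931, plus strand for Dnajc3. Those of Creld2, Pdia6 and Syvn1 lie at chr15:88819496-88819645, plus strand, at chr12:17266439-17266588, plus strand and at chr19:6046426-6046575, plus strand. For Canx the stretch lies at chr11:50325674-50325823, minus strand, and for Herpud1 at chr8:94386279-94386428, plus strand. The first base of the element stood 65 bases before the start in Hspa5, 44 in Syvn1, 98 in Pdia6 and 105 in Dnajc3. It stood 126 bases before the start in Creld2, 145 in Canx and 52 in Herpud1, whose element is the ERSE-II. Hsp90b1 held an element 107 bases before the start, which is printed, and another 212 bases before it. Among the values below, 6 of the 8 genes with an ERSE were called higher in F1-P than in B6-Y, Calr and Canx being the others. Of the 23 genes with a window but no ERSE, 15 were called higher too, against 10.0% of all genes tested. These 23 include Herpud1 and Dnajb11, which hold the ERSE-II and were both called higher. The median log2 fold change was 1.52 with an ERSE and 1.23 in these 23 genes, so the higher genes included genes with and without an ERSE. All 7 genes with no window were called higher as well.

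The deposited values are CPM of a library size that the authors scaled by a factor per sample, and they are called normalised values here. LSK libraries held 23772252 to 28493747 reads and CMP libraries 20001328 to 24761060, and all 38 genes passed the filter on low values in every comparison. The lowest value of any of them in LSK was 2.49, for Sec61g in a B6-O sample. Markers of plasma cells, which are not stem or progenitor cells, differed between the strains in LSK. All 9 plasma cell markers were called higher in F1-P than in B6-Y and 8 of 9 in F1-L than in B6-O. Their summed value was 14677, 38038 and 34089 in F1-P, 9763, 9883 and 13079 in F1-L, 790, 1997 and 1893 in B6-Y and 397, 253 and 2540 in B6-O, in the order of replicates 1, 2 and 3 that is used throughout. No plasma cell marker was at 0 in any LSK sample. Immunoglobulin genes took 19.2, 36.5 and 35% of reads in F1-P, 16.8, 21.6 and 25.5% in F1-L, 0.918, 2.86 and 2.85% in B6-Y and 0.503, 0.301 and 4.76% in B6-O. In CMPs their share was at most 0.255%. Markers of the sorted cells differed too. Of 7 stem and progenitor cell markers, 6 had negative values at each age. In F1-P 4 of the 7 were called lower, against 889 of 14380 genes over all. In F1-L 3 of the 7 were called lower, against 539 of 14381. Cd34, which encodes a surface marker of progenitors, had log2 fold changes of -1.28 and -1.37, and Meis1, a transcription factor of stem cells, had -1.12 and -0.96, and these were called lower in both F1 groups. Kit, which encodes c-Kit, had -0.57 and -0.37 and was not called, and Ly6a, which encodes Sca-1, had 3.53 and 2.68 and was called higher in both. In bulk samples a different number of cells of a type and a different amount of RNA per cell cannot be told apart. The part of the plasma cell markers in the results below was not tested.

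In LSK of prediseased mice, 28 of the 38 genes were called higher in F1-P than in B6-Y and none lower. A gene was called when limma gave an adjusted p of at most 0.05 over all 14380 genes tested and a fold change above 1.5 on log2(value + 1). Of all genes tested, 10.0% were called higher by the same rule. The median log2 fold change of the 38 genes was 1.30, against -0.04 over all genes, and all 38 were positive, or 37 with either edgeR test. In 36 of the 38 every F1-P sample lay above every B6-Y sample, which held for 17.4% of all genes. The 2 exceptions were Ern1 and Atf4.

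At the later age, 14 of the 38 genes were called higher in F1-L than in B6-O and none lower, against 7.84% of the 14381 genes tested. The median was 0.94, against -0.03 over all genes, all 38 values were again positive (36 with either edgeR test and 37 with DESeq2), and 23 genes had groups that did not overlap with F1-L above, against 17.5% of all genes. These 2 comparisons share no sample but set the same 2 strains against each other. The 14 genes called in the older mice were all among the 28 of the younger. The genes called in both made up 50% of the list of the younger mice and 100% of that of the older. With 28 of the 38 called in the younger mice, much of this overlap would be found without further likeness. The overlap over all called genes was not computed. The genes called in both were Hsp90b1, Hyou1, Dnajb9, Dnajc3, Creld2, Pdia4, Herpud1, Sel1l, Syvn1, Edem1, Edem2, Atf6, Sec61a1 and Spcs3. The count in the older mice rested on single libraries. It was 9 without F1-L replicate 1, 7 without F1-L replicate 3, 9 without B6-O replicate 1, 9 without B6-O replicate 2 and 25 without B6-O replicate 3. Over all genes the count moved too, from 1667 to between 448 without F1-L replicate 3 and 2285 without B6-O replicate 3. The last of these libraries had the highest value of its group for 28 of the 38 genes and also the highest immunoglobulin share, plasma cell marker sum and neutrophil marker sum of its group. Sel1l, Syvn1, Edem1, Hyou1, Dnajc3, Pdia4 and Sec61a1 stayed called in the older mice when any single library was left out.

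**Figure D1:**
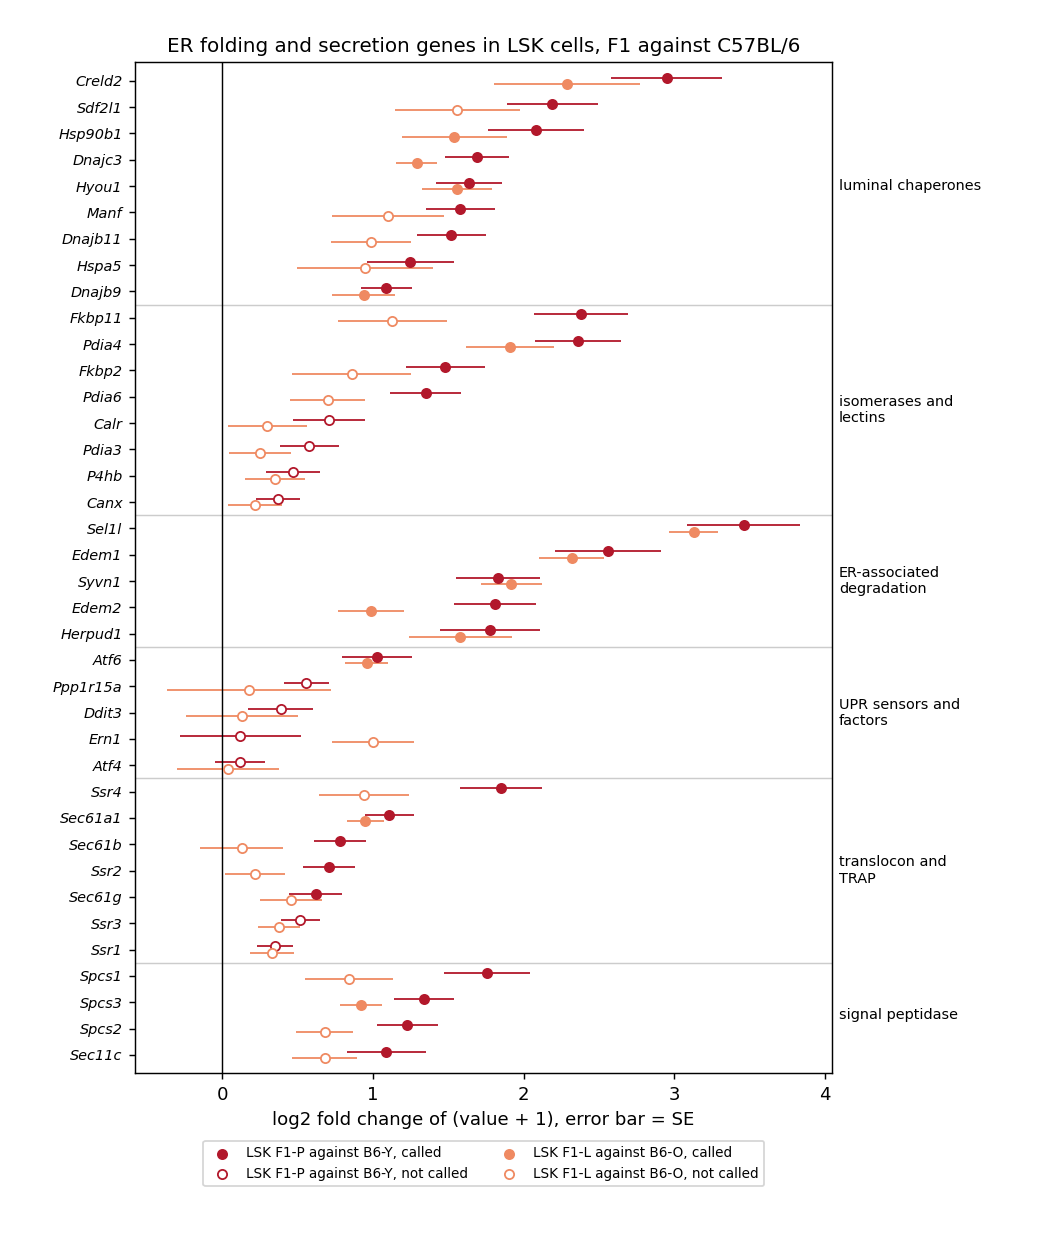
Each point is the log2 fold change of a gene between F1 and C57BL/6 LSK (horizontal axis, on log2(value + 1)) with its standard error as the bar, dark red for F1-P against B6-Y and orange for F1-L against B6-O, filled where called, and genes stand in rows by role. All 38 genes lie right of 0 in both comparisons, Sel1l farthest at 3.46 and 3.13, and the sensors and factors other than Atf6 include the smallest values.

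The luminal chaperones and their co-factors were called higher in F1-P for 9 of 9 genes, with a median log2 fold change of 1.64, and in F1-L for 5 of 9, with a median of 1.29. Over all genes tested, 10.0% were called higher in F1-P and 7.84% in F1-L. Hspa5, the Hsp70-type chaperone BiP, had values of 1417, 1915 and 1694 in F1-P and 468, 792 and 918 in B6-Y, and of 1256, 952 and 1586 in F1-L and 453, 450 and 1295 in B6-O. The young groups did not overlap, whereas B6-O replicate 3 reached into the range of F1-L. The log2 difference of Hspa5 came to 1.25 (SE 0.291, adjusted p = 0.0233) for the young and 0.95 (SE 0.451, adjusted p = 0.225) for the older mice, and the latter was not called. The call in the young mice was lost at 1.15 without F1-P replicate 2, at 1.24 without F1-P replicate 3, at 0.96 without B6-Y replicate 1 and at 1.25 in a fit of all 12 LSK samples.

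Creld2, an ER protein induced by unfolded proteins, differed most in this group. Its values were 209, 525 and 364 in F1-P against 28.9, 45 and 62.4 in B6-Y, and 273, 146 and 304 in F1-L against 26.4, 38.8 and 94.8 in B6-O. Every F1 sample lay above every C57BL/6 sample. On the log2 scale this was 2.95 (SE 0.369, adjusted p = 0.00161) and 2.29 (SE 0.483, adjusted p = 0.025), a 7.73-fold and a 4.9-fold difference. Hsp90b1, the Hsp90 of the ER, had 909, 2087 and 1614 in F1-P against 277, 354 and 411 in B6-Y, and 1127, 560 and 1165 in F1-L against 227, 324 and 404 in B6-O. Here too the strains did not overlap at either age, with log2 fold changes of 2.08 (SE 0.318, adjusted p = 0.00392) and 1.54 (SE 0.348, adjusted p = 0.032). Both genes lost their call in the older mice when F1-L replicate 1, F1-L replicate 3, B6-O replicate 1 or B6-O replicate 2 was left out, at 1.90 to 2.17 for Creld2 and 1.32 to 1.57 for Hsp90b1. Of the exon bases of Hsp90b1, 10.3% overlap a pseudogene on the opposite strand, from which reads cannot be told apart without strand.

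Sdf2l1 works with BiP and its J-domain partners to keep proteins from aggregating. It had 90.2, 187 and 136 in F1-P and 22.9, 24 and 40.5 in B6-Y, then 103, 56.3 and 113 in F1-L and 16.6, 29 and 49.1 in B6-O. Its groups did not overlap at either age, but only the younger comparison was called, at 2.19 (SE 0.302, adjusted p = 0.00251) against 1.56 (SE 0.415, adjusted p = 0.055). Dnajc3, a J-domain co-chaperone of BiP that also restrains the kinase Perk, had 284, 505 and 435 in F1-P, 114, 122 and 131 in B6-Y, 321, 275 and 321 in F1-L and 112, 135 and 126 in B6-O. Its C57BL/6 samples spanned a narrow range and all F1 samples were above it, with log2 fold changes of 1.69 (SE 0.214, adjusted p = 0.00172) and 1.29 (SE 0.137, adjusted p = 0.00166). The other members of this role were Hyou1, a nucleotide exchange factor for BiP, Dnajb9 and Dnajb11, J-domain co-chaperones, and Manf, a BiP-binding protein that cells also secrete. Hyou1 differed by 1.64 and 1.56 and Dnajb9 by 1.09 and 0.94, all 4 called. The call of Dnajb9 in the older mice was lost when any single library other than B6-O replicate 3 was left out, at 0.71 to 1.03. Dnajb11 and Manf differed by 1.52 and 1.58 in the young mice, both called, and had 0.99 and 1.10 in the older, neither called.

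The disulphide isomerases, lectin chaperones and prolyl isomerases divided. Of 8 genes, 4 were called higher in F1-P (Pdia4, Pdia6, Fkbp2 and Fkbp11) and 1 in F1-L (Pdia4), with medians of 1.03 and 0.53. The shares of all genes were 10.0% and 7.84%, and 1 of 8 in F1-L does not set this role apart from all genes. Pdia4, a protein disulphide isomerase, had 336, 683 and 578 in F1-P against 78.1, 96.9 and 127 in B6-Y, and 391, 246 and 492 in F1-L against 71.8, 105 and 115 in B6-O. The strains did not overlap at either age, and the log2 fold changes were 2.36 (SE 0.287, adjusted p = 0.0014) and 1.91 (SE 0.29, adjusted p = 0.00688). Fkbp11, a prolyl isomerase of secretory cells, had 16.4, 36.5 and 30.9 in F1-P against 3.53, 3.85 and 5.71 in B6-Y and 12.2, 18.1 and 21.7 in F1-L against 5.2, 5.4 and 12.5 in B6-O. F1-L replicate 1 lay below B6-O replicate 3, so the older groups overlapped. The differences were 2.38 (SE 0.31, adjusted p = 0.00196) in the young and 1.13 (SE 0.36, adjusted p = 0.0909) in the older mice.

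Fkbp2, another prolyl isomerase of the ER, had 55.1, 104 and 87.8 in F1-P, 23.3, 25.2 and 36.6 in B6-Y, 54.3, 52.3 and 64.5 in F1-L and 18.6, 25.5 and 60.9 in B6-O. Pdia6, a disulphide isomerase that binds BiP clients, had 386, 616 and 577 in F1-P, 182, 173 and 263 in B6-Y, 358, 285 and 420 in F1-L and 159, 220 and 284 in B6-O. Both were called in the young mice, at 1.48 (SE 0.262, adjusted p = 0.00734) and 1.35 (SE 0.235, adjusted p = 0.00701), and not in the older, at 0.86 (SE 0.394, adjusted p = 0.21) and 0.70 (SE 0.247, adjusted p = 0.12). None of the 4 genes of this role that were left was called. Calr, the soluble lectin chaperone calreticulin, had 801, 1040 and 1081 in F1-P against 535, 486 and 795 in B6-Y and 917, 627 and 1000 in F1-L against 552, 671 and 822 in B6-O. The young groups lay apart by a small gap and the older groups overlapped. Neither difference was called, at 0.71 (SE 0.241, adjusted p = 0.0845) and 0.30 (SE 0.261, adjusted p = 0.483). Canx, its membrane-bound partner, Pdia3, the disulphide isomerase that works with both, and P4hb, another disulphide isomerase, had log2 fold changes of 0.37, 0.58 and 0.47 in the young and of 0.22, 0.25 and 0.35 in the older mice, none of them called.

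The genes of ER-associated degradation were the role in which all genes, 5 of 5, were called higher in F1 LSK at both ages. That compares with 10.0% and 7.84% of all genes, and the medians were 1.83 and 1.92. Sel1l, the adapter that holds the ubiquitin ligase of this route together, lies at chr12:91806043-91849157, minus strand. It had the largest difference of all 38 genes, with values of 701, 1929 and 1726 in F1-P against 96.3, 149 and 120 in B6-Y, and 810, 839 and 1069 in F1-L against 102, 111 and 93.7 in B6-O. The lowest F1 sample was several times the highest C57BL/6 sample. On the log2 scale the difference was 3.46 (SE 0.376, adjusted p = 0.000869) in the young and 3.13 (SE 0.163, adjusted p = 9.22e-05) in the older mice, 11-fold and 8.72-fold. Syvn1, the ubiquitin ligase that Sel1l binds, had 284, 578 and 390 in F1-P against 105, 145 and 91.4 in B6-Y, and 266, 220 and 334 in F1-L against 67.8, 60 and 86.3 in B6-O. It was above all control samples in every F1 sample, with 1.83 (SE 0.276, adjusted p = 0.00365) and 1.92 (SE 0.203, adjusted p = 0.00162).

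Edem1, which helps to mark misfolded glycoproteins by trimming their mannose, lies at chr6:108828641-108859356, plus strand. It had 419, 1040 and 909 in F1-P against 106, 169 and 106 in B6-Y and 426, 441 and 535 in F1-L against 80.1, 77.8 and 126 in B6-O, with no overlap. The differences were 2.56 (SE 0.352, adjusted p = 0.00249) and 2.32 (SE 0.215, adjusted p = 0.000915). Edem2, which starts that trimming, had 200, 388 and 346 in F1-P, 73.1, 75.8 and 110 in B6-Y, 184, 200 and 219 in F1-L and 79.9, 89.8 and 141 in B6-O. It differed by 1.81 (SE 0.271, adjusted p = 0.00361) and 0.99 (SE 0.22, adjusted p = 0.0301). Herpud1, a stress-induced scaffold of the same complex, ranged over 294 to 670 in F1-P, 88.4 to 164 in B6-Y, 235 to 408 in F1-L and 70.4 to 154 in B6-O, with log2 fold changes of 1.78 and 1.58. Edem2 and Herpud1 lost their call in the older mice when any single library other than B6-O replicate 3 was left out, at 0.83 to 1.05 and 1.32 to 1.72.

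Of the 5 stress sensors and transcription factors, 1 was called higher at each age, which was Atf6 both times, and the medians were 0.39 and 0.18. Beside 10.0% and 7.84% of all genes, 1 of 5 does not set this role apart. Atf6, the sensor that becomes a transcription factor after it is cut in the Golgi, had 119, 219 and 176 in F1-P against 85.4, 93.5 and 66.9 in B6-Y, and 125, 122 and 137 in F1-L against 67.8, 74.7 and 55.3 in B6-O. Its F1 and C57BL/6 samples did not overlap, at 1.03 (SE 0.233, adjusted p = 0.021) and 0.96 (SE 0.144, adjusted p = 0.0067). The call in the young mice was lost without F1-P replicate 2 or 3 or B6-Y replicate 1 or 3, at 0.83 to 1.06, and that in the older mice without F1-L replicate 3, at 0.91. Ppp1r15a, which directs the phosphatase that ends the translation block of the response, had 443, 495 and 450 in F1-P and 296, 289 and 360 in B6-Y, then 247, 585 and 501 in F1-L and 336, 188 and 781 in B6-O. The young groups did not overlap, and B6-O held both the lowest and the highest LSK value of the gene. Its difference of 0.56 (SE 0.15, adjusted p = 0.0395) in the young mice stayed under the fold change of 1.5, and that of the older mice was 0.18 (SE 0.546, adjusted p = 0.852). Atf4 and Ddit3, transcription factors of the Perk branch, had 0.12 and 0.39 in the young and 0.04 and 0.13 in the older mice, none called. Ern1, the sensor that splices Xbp1 mRNA, had 0.12 in the young mice and 1.00 (SE 0.27, adjusted p = 0.0579) in the older. In the older mice its F1-L values, 407, 528 and 317, were all above those of B6-O, 217, 264 and 148, without a call.

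The translocon and TRAP genes were called higher in F1-P for 5 of 7 and in F1-L for 1 of 7, with medians of 0.71 and 0.38. The shares of all genes were 10.0% and 7.84%, from which 1 of 7 in F1-L does not stand apart. Ssr4, a TRAP subunit, had 204, 410 and 354 in F1-P against 70, 83.4 and 105 in B6-Y and 157, 220 and 227 in F1-L against 83, 80.8 and 163 in B6-O. Its older groups overlapped, and the differences were 1.85 (SE 0.271, adjusted p = 0.00322) and 0.94 (SE 0.297, adjusted p = 0.0902). Sec61a1, the channel-forming subunit of the translocon, had 264, 381 and 308 in F1-P, 134, 147 and 156 in B6-Y, 253, 260 and 293 in F1-L and 133, 145 and 137 in B6-O. It was the member of this role called at both ages, at 1.11 (SE 0.162, adjusted p = 0.00325) and 0.95 (SE 0.124, adjusted p = 0.00369), and its groups did not overlap. Sec61b, a small translocon subunit, had 73.1, 90.1 and 86.7 in F1-P, 43.2, 42.2 and 60.8 in B6-Y, 61.9, 64.6 and 73.9 in F1-L and 46.3, 50.1 and 96.9 in B6-O. Ssr2, a TRAP subunit, had 117, 142 and 137 in F1-P, 71.8, 70.2 and 101 in B6-Y, 106, 111 and 124 in F1-L and 78.4, 90.6 and 131 in B6-O. For both the B6-O replicate 3 value was above all F1-L values. They were called in the young mice, at 0.78 (SE 0.173, adjusted p = 0.0193) and 0.71 (SE 0.171, adjusted p = 0.0265), and in the older had 0.13 (SE 0.277, adjusted p = 0.79) and 0.22 (SE 0.2, adjusted p = 0.509). The calls in the young mice were lost without F1-P replicate 2 or 3 or B6-Y replicate 1 or 2, at 0.69 to 0.75 for Sec61b and 0.62 to 0.68 for Ssr2.

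Ssr3, another TRAP subunit, had 333, 381 and 378 in F1-P against 257, 239 and 265 in B6-Y and 294, 341 and 361 in F1-L against 250, 267 and 246 in B6-O. The strains did not overlap at either age, yet its 0.52 (SE 0.131, adjusted p = 0.0318) and 0.38 (SE 0.14, adjusted p = 0.134) were not called, the first because the fold change was under 1.5. Ssr1 had 0.35 and 0.33, not called. Sec61g, the third subunit of the translocon, was called in the young mice at 0.62 (SE 0.173, adjusted p = 0.0455) and lost that call whichever library was left out, at 0.54 to 0.67, and under 4 other settings. Exons of Sec61a1 and Ssr2 overlap an antisense gene and a pseudogene on the opposite strand over 8.16% and 12.8% of their bases.

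All 4 signal peptidase genes were called higher in F1-P and 1 in F1-L, with medians of 1.29 and 0.76. The shares of all genes were 10.0% and 7.84%, and 1 called gene of 4 in F1-L is too few to stand apart. Spcs1, a small accessory subunit, had 117, 213 and 212 in F1-P against 41.2, 44.2 and 70.4 in B6-Y and 86.4, 109 and 131 in F1-L against 45, 50.2 and 93.2 in B6-O. The differences were 1.76 (SE 0.286, adjusted p = 0.005) and 0.84 (SE 0.293, adjusted p = 0.115), and 16.3% of its exon bases overlap Glt8d1 on the opposite strand. Spcs3, a subunit needed for activity, had 225, 343 and 355 in F1-P, 113, 110 and 134 in B6-Y, 243, 240 and 281 in F1-L and 119, 148 and 135 in B6-O, and was called at both ages, at 1.34 (SE 0.197, adjusted p = 0.00326) and 0.92 (SE 0.138, adjusted p = 0.00656). Spcs2, another accessory subunit, had 221, 339 and 341 in F1-P, 114, 117 and 146 in B6-Y, 204, 208 and 240 in F1-L and 106, 137 and 169 in B6-O, with 1.23 (SE 0.201, adjusted p = 0.00514) and 0.68 (SE 0.188, adjusted p = 0.0608). Sec11c, a catalytic subunit, had 207, 408 and 365 in F1-P, 121, 170 and 153 in B6-Y, 197, 200 and 244 in F1-L and 114, 113 and 181 in B6-O, with 1.09 (SE 0.264, adjusted p = 0.027) and 0.68 (SE 0.213, adjusted p = 0.0885). The call of Spcs3 in the older mice was lost without F1-L replicate 3, at 0.85, and that of Sec11c in the young without F1-P replicate 2 or 3 or B6-Y replicate 1 or 3, at 0.90 to 1.12. In all 4 genes F1-P replicate 1 was below the other F1-P samples and above all B6-Y samples.

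**Figure D2:**
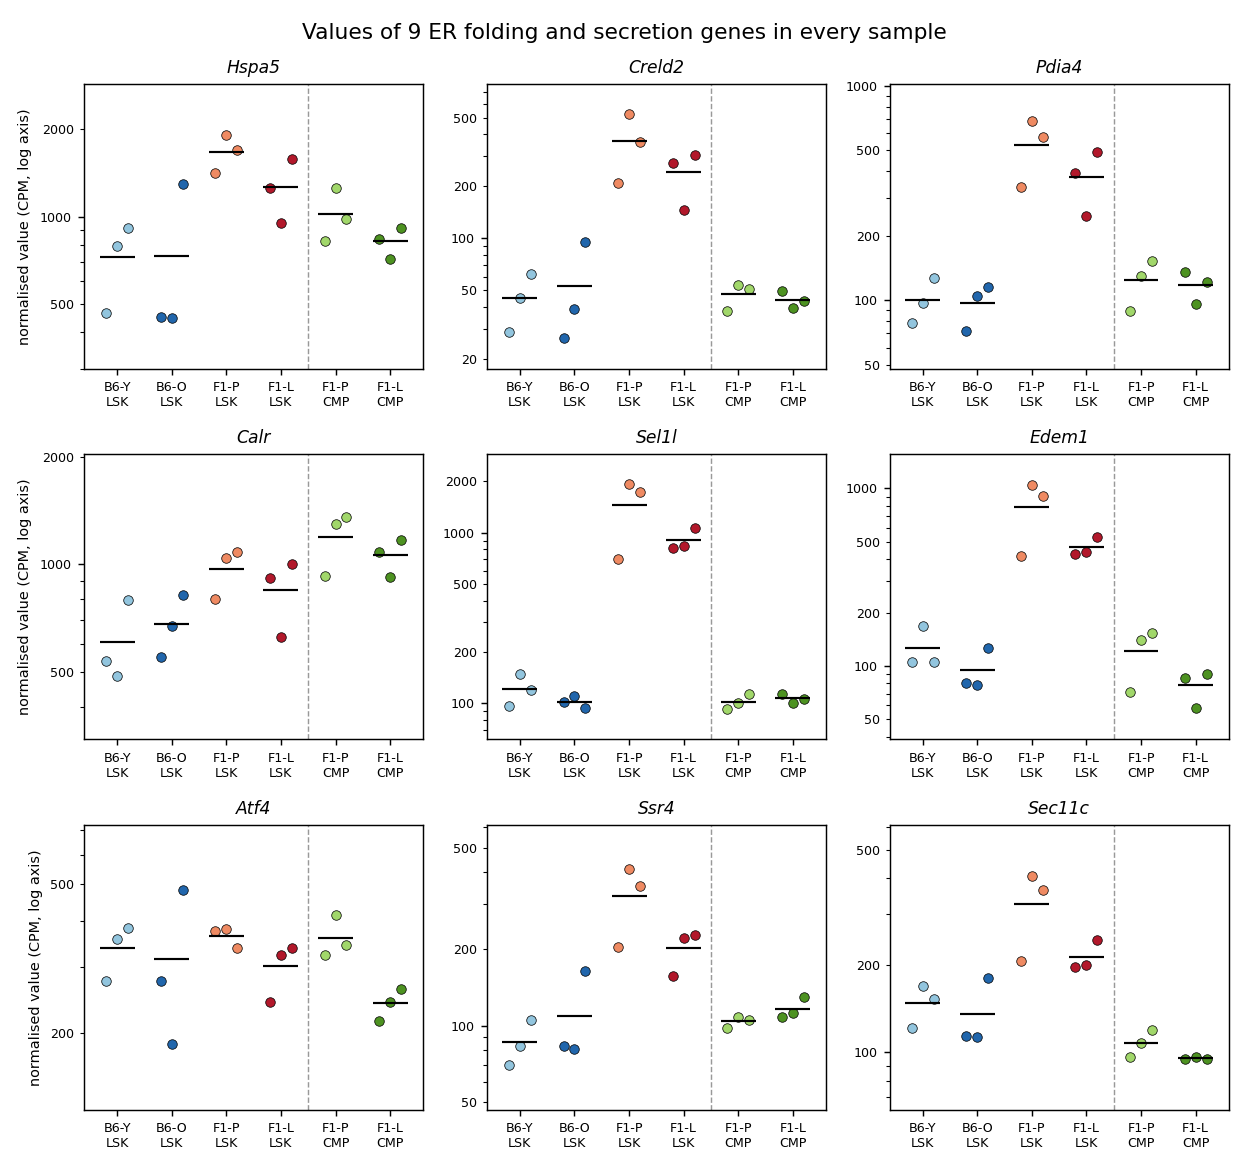
Normalised values (vertical axes, CPM of a scaled library size, log scale) of 9 genes in every sample, with points for replicates 1, 2 and 3 from left to right in each group and a line at the group mean; a dashed line separates the LSK and CMP data, which were normalised separately. Sel1l, Edem1, Creld2 and Pdia4 stand higher in all F1 LSK samples than in all C57BL/6 LSK samples, Calr and Atf4 overlap, and B6-O replicate 3 is the highest B6-O sample for Hspa5, Creld2 and Ssr4.

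The level within LSK followed another order than the differences. Compared per kilobase of exon, the most abundant of the 38 genes in B6-Y was Calr at 277 (mean value per kilobase), followed by Atf4 at 196 and Hspa5 at 193. In F1-P the order was Hsp90b1 at 544, Hspa5 at 446 and Calr at 446, with Ssr4 next at 403. In F1-L it was Calr at 388, Hspa5 at 337 and Hsp90b1 at 336. Sec61g was lowest in all groups, at 1.49 in B6-Y and 2.55 in F1-P. Neighbours in this order were often closer than the spread of a group, as for Hspa5 and Calr in F1-P. As a whole the 38 genes summed to 5793, 6610 and 7513 in B6-Y and 5407, 6027 and 8685 in B6-O, and to 11878, 19754 and 17222 in F1-P and 11914, 10704 and 14131 in F1-L. The F1 sums lay above all C57BL/6 sums. All values of a sample do not add up to a fixed total, which ran from 832403 to 1387186 over LSK. As percent of reads the 38 genes took 0.696, 0.761 and 0.833 in B6-Y and 0.648, 0.723 and 0.912 in B6-O. In F1-P they took 1.12, 1.42 and 1.3, and in F1-L 1.18, 1.02 and 1.27. F1 samples lay above all C57BL/6 samples here too, by a smaller factor.

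Between the stages of the F1 mice none of the 38 genes was called, while 4 of 14332 genes were (0.0279%). The values leaned lower in F1-L, with 37 of 38 negative and a median log2 fold change of -0.38, against -0.01 over all genes. In no gene did the groups lie apart with F1-L below, which held for 7.29% of all genes. At an unadjusted p below 0.05 by limma there were 4 genes, Dnajb11, Pdia6, Sec61b and Spcs1, against 12.8% of all genes, and DESeq2 and both tests of edgeR, the quasi-likelihood and the likelihood ratio test, also called none. Spcs1 had -0.69 (SE 0.265, adjusted p = 0.341), Dnajb11 -0.61 (SE 0.24, adjusted p = 0.354), Pdia6 -0.56 (SE 0.226, adjusted p = 0.367) and Sec61b -0.31 (SE 0.119, adjusted p = 0.338). Ern1 was the gene on the other side, at 0.28 (SE 0.228, adjusted p = 0.686). The median by role ran from -0.58 in ER-associated degradation to -0.21 in the translocon and TRAP genes. F1-P replicate 1 was the lowest F1-P sample for 35 of the 38 genes, and its immunoglobulin share and plasma cell marker sum were also the lowest of its group. Without that library the median was -0.58, and without F1-P replicate 2 it was -0.25, with no gene called in either case. The summed plasma cell markers were lower in all F1-L samples than in all F1-P samples. That sum was mostly Jchain, with a mean of 9067 of 10908 in F1-L and 25506 of 28935 in F1-P. All 9 plasma cell markers had negative values, 4 of them with an unadjusted p below 0.05 by limma, and none was called. In 2 of the 9 the groups did not overlap. All 9 neutrophil markers had an unadjusted p below 0.05 and a higher value in F1-L, with a median of 3.00 and none called, as had 4 of 5 macrophage markers. The B cell markers summed to 215, 183 and 167 in F1-L and 387, 421 and 298 in F1-P, with no overlap. Of the 7, 6 had negative values, among them Cd79a at -1.11, Cd79b at -0.65 and Ebf1 at -1.69 with an unadjusted p below 0.05, while Cd22 had 1.55 with such a p, and none was called. The part of these cells in the values was not tested.

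Between the ages of the C57BL/6 mice none of the 38 genes was called. Nor was any of the 14005 genes tested (0%), of which the edgeR likelihood ratio test called 114 and DESeq2 207, and the median was 0.02 with 21 of 38 positive. At an unadjusted p below 0.05 by limma there was 1 of the 38, against 6.62% of all genes, and the 2 edgeR tests and DESeq2 called none of the 38. The 1 gene was Syvn1, whose values of 67.8, 60 and 86.3 in B6-O were all below the 105, 145 and 91.4 of B6-Y, at -0.65 (SE 0.216, adjusted p = 0.556). For Hspa5, Creld2 and Manf the mean in B6-O rested on replicate 3, with 45.5, 58.7 and 127 for Manf. The difference between the age difference of the F1 mice and that of the C57BL/6 mice was tested over all 12 LSK samples, and none of the 38 genes nor any of the 15084 genes was called (0%), against 10 of all genes by the likelihood ratio test and 29 by DESeq2. Its median was -0.39, with 36 of 38 negative, against a median of 0.0 over all genes, of which 49.9% were positive. The 9 cytosolic and 5 mitochondrial chaperones listed for comparison were all negative too, with medians of -0.23 and -0.2, so the direction was not particular to the 38 genes. Fkbp11 was the 1 gene at an unadjusted p below 0.05 by limma, at -1.24 (SE 0.512, adjusted p = 0.976), while 3.92% of all genes were below that p, and the 2 edgeR tests and DESeq2 called no gene of the 38. Values that miss the threshold do not show that the ages were alike.

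**Figure D3:**
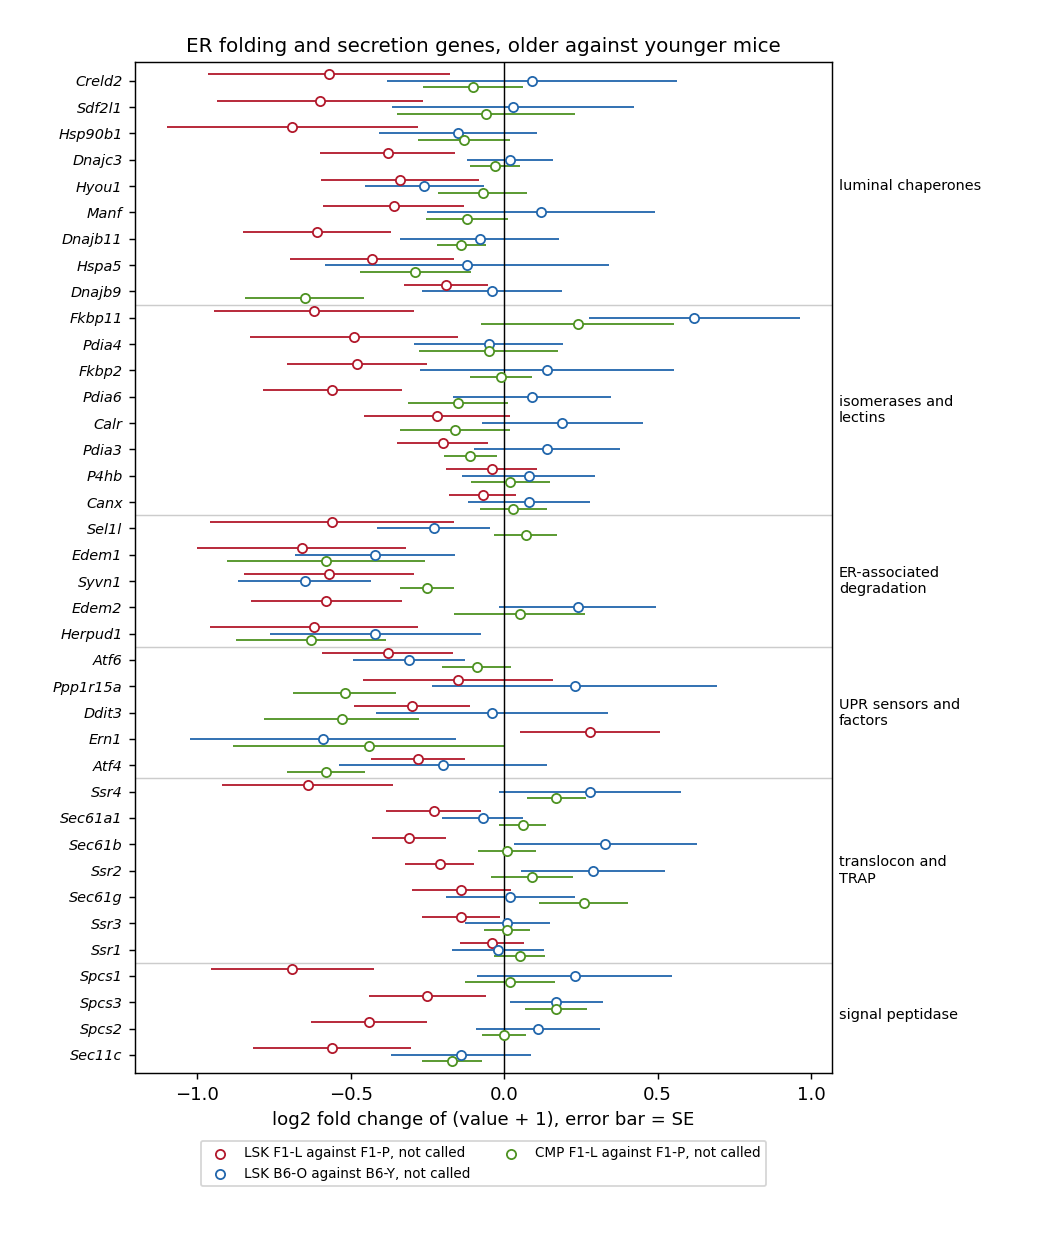
Log2 fold change on log2(value + 1) (horizontal axis) of each gene in older against younger mice, with standard errors as bars, in red for LSK of F1 mice, blue for LSK of C57BL/6 mice and green for CMPs of F1 mice. All symbols are open because no gene was called, the red points lie left of 0 for 37 of 38 genes, and the blue and green points lie on both sides.

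In CMPs of the same F1 stages none of the 38 genes was called, and 1 of 12926 genes was (0.00774%). The median was -0.06, against 0.04 over all genes, with 15 of 38 positive (9 with either edgeR test or DESeq2). The 5 genes at an unadjusted p below 0.05 by limma, against 9.80% of all genes, were Atf4, Ppp1r15a, Dnajb9, Syvn1 and Herpud1, all with negative values. The edgeR likelihood ratio test and DESeq2 each gave 1 lower gene among the 38, which was Atf4, and the quasi-likelihood test called none. The same 2 tests called 2.12% and 2.33% of all genes lower, so 1 of 38 was near the share of all genes. Atf4, the main transcription factor of the Perk branch, had 215, 243 and 263 in F1-L against 323, 413 and 344 in F1-P, at -0.58 (SE 0.126, adjusted p = 0.353). Ppp1r15a, a target of Atf4, had 114, 140 and 164 against 166, 223 and 208, at -0.52 (SE 0.169, adjusted p = 0.451). In both genes every F1-L sample was below every F1-P sample.

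Dnajb9 had 32.8, 31.7 and 39.5 in F1-L CMPs against 41.7, 58.9 and 67.1 in F1-P CMPs, at -0.65 (SE 0.193, adjusted p = 0.41), and Herpud1 had 58.2, 52.6 and 67.3 against 64.5, 126 and 95.3, at -0.63 (SE 0.244, adjusted p = 0.489). The groups of Dnajb9 did not overlap and those of Herpud1 did. These 2 genes were called lower when F1-P replicate 1 of the CMPs was left out, at -0.85 (limma adjusted p = 0.0319) and -0.88 (limma adjusted p = 0.0483). Without that library 434 genes were called over all, against 1 with it, and 3.10% of all genes were called lower, so 2 of 38 was not far from the share of all genes. Syvn1 had 84.8, 79.1 and 84.2 against 95.9, 107 and 92.3, at -0.25 (SE 0.0879, adjusted p = 0.473). In 7 of the 38 genes all F1-L values were below all F1-P values, against 6.57% of all genes, and they were Dnajb9, Dnajb11, Syvn1, Ddit3, Atf4, Ppp1r15a and Sec11c. Of the 5 sensors and factors, 5 had values below 0, with a median of -0.52, while the 7 translocon and TRAP genes ranged from 0.01 to 0.26. All 9 neutrophil markers had negative values and an unadjusted p below 0.05, as had 6 of 7 B cell markers, with none called. Of the plasma cell markers, 6 of 9 were tested in CMPs, and 3 of them had a negative value with such a p and none was called. The neutrophil markers summed to 282, 5858 and 7684 in F1-P and 77.5, 59.1 and 395 in F1-L CMPs, and the B cell markers to 44.6, 170 and 191 and 16.7, 11 and 27.3. F1-P replicate 1, the library whose removal gave the calls of Dnajb9 and Herpud1, was the lowest of its group in both sums. The part of these cells in the values was not tested.

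The values of F1 CMPs are set beside those of LSK for Sel1l, Creld2 and Edem1, which had the largest strain differences of the 38 genes. Canx and Calr, not called between the strains, were not picked by that rule and are given as well. The 2 data sets were normalised separately and were not tested against each other. Sel1l had 92.2, 100 and 114 in F1-P CMPs and 114, 101 and 106 in F1-L CMPs, beside 1452 ± 658 in F1-P LSK and 122 ± 26.3 in B6-Y LSK (mean ± SD, n = 3). Creld2 had 38.1, 54.1 and 50.9 in F1-P CMPs, beside 366 ± 158 in F1-P LSK and 45.5 ± 16.7 in B6-Y LSK. Edem1 had 71, 140 and 153, beside 790 ± 327 and 127 ± 36.3. These CMP values lay nearer to those of B6-Y LSK. Canx had 813, 783 and 673 in F1-P CMPs, beside 391 ± 11.4 in F1-P LSK, and Calr had 930, 1299 and 1358, beside 974 ± 151. The plasma cell markers summed to 90.8, 230 and 310 in F1-P CMPs and 110, 66.1 and 108 in F1-L CMPs. No C57BL/6 CMPs were analysed here.

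The other genes of the pathway were taken from a list of 70. In F1-P against B6-Y 36 of the 69 tested were called higher and none lower, and in F1-L against B6-O 19 of 70 were called higher and none lower. The shares of all genes called higher were 10.0% and 7.84%. The medians of the list were 0.65 and 0.44, against -0.04 and -0.03 over all genes. The largest differences belonged to Derl3, a channel protein of ER-associated degradation in secretory cells, with 4.07 (SE 0.472, adjusted p = 0.00117) and 4.15 (SE 0.669, adjusted p = 0.00876). Txndc5, a disulphide isomerase, had 3.55 (SE 0.444, adjusted p = 0.00161) and 2.93 (SE 0.448, adjusted p = 0.00704). Xbp1, the transcription factor that Ern1 splices, had a mean of 1702 ± 766 in F1-P against 171 ± 60.2 in B6-Y (SD, n = 3) and log2 fold changes of 3.25 and 3.00. Mzb1, a chaperone of immunoglobulin assembly, had 2.96 and 3.44. Derl3, Xbp1 and Mzb1 are also among the 9 plasma cell markers. Chac1, a glutathione-degrading enzyme downstream of Atf4, had 2.35 and 2.75, Creb3l2, a relative of Atf6, had 2.13 and 1.67, and Tram2, a translocating chain-associated membrane protein, had 1.68 and 1.56, all called at both ages. Fkbp14, a prolyl isomerase, had 1.72 and 0.84, called at both ages. None of the 70 was called by limma between the F1 stages, between the C57BL/6 ages or in CMPs. There 8 of 70, 2 of 69 and 2 of 68 tested had an unadjusted p below 0.05 by limma, against 12.8%, 6.62% and 9.80% of all genes. DESeq2 called Pdia5 higher and Mzb1 lower in F1-L LSK and Atf3 and Mzb1 lower in F1-L CMPs, the edgeR likelihood ratio test called the same but for Mzb1 in LSK, and the quasi-likelihood test called none. These genes are named because the counts are small, after their values were seen.

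By list, the 10 other signalling genes had 4 called higher in F1-P and 5 in F1-L, the 16 other folding genes 7 and 5, and the 12 other genes of ER-associated degradation 8 and 3. Of the 19 genes for targeting, translocation and glycosylation 11 and 2 were called higher, and of the genes for transport from the ER to the Golgi, 12 or 13 of which were tested, 6 and 4. The shares of all genes called higher were 10.0% and 7.84%, so 2 of 19 in F1-L was near the share of all genes. Of 9 cytosolic and 5 mitochondrial chaperones none was called in any comparison by limma, edgeR's quasi-likelihood test or DESeq2, and 1, Hspe1, was lower in F1-L against B6-O by the likelihood ratio test. Their medians were -0.24 and -0.12 in F1-P against B6-Y and -0.51 and -0.33 in F1-L against B6-O. At an unadjusted p below 0.05 limma gave 1 and 0 of them in the young mice, against 31.3% of all genes, and 5 and 3 in the older, against 27.5% of all genes.

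**Figure D4:**
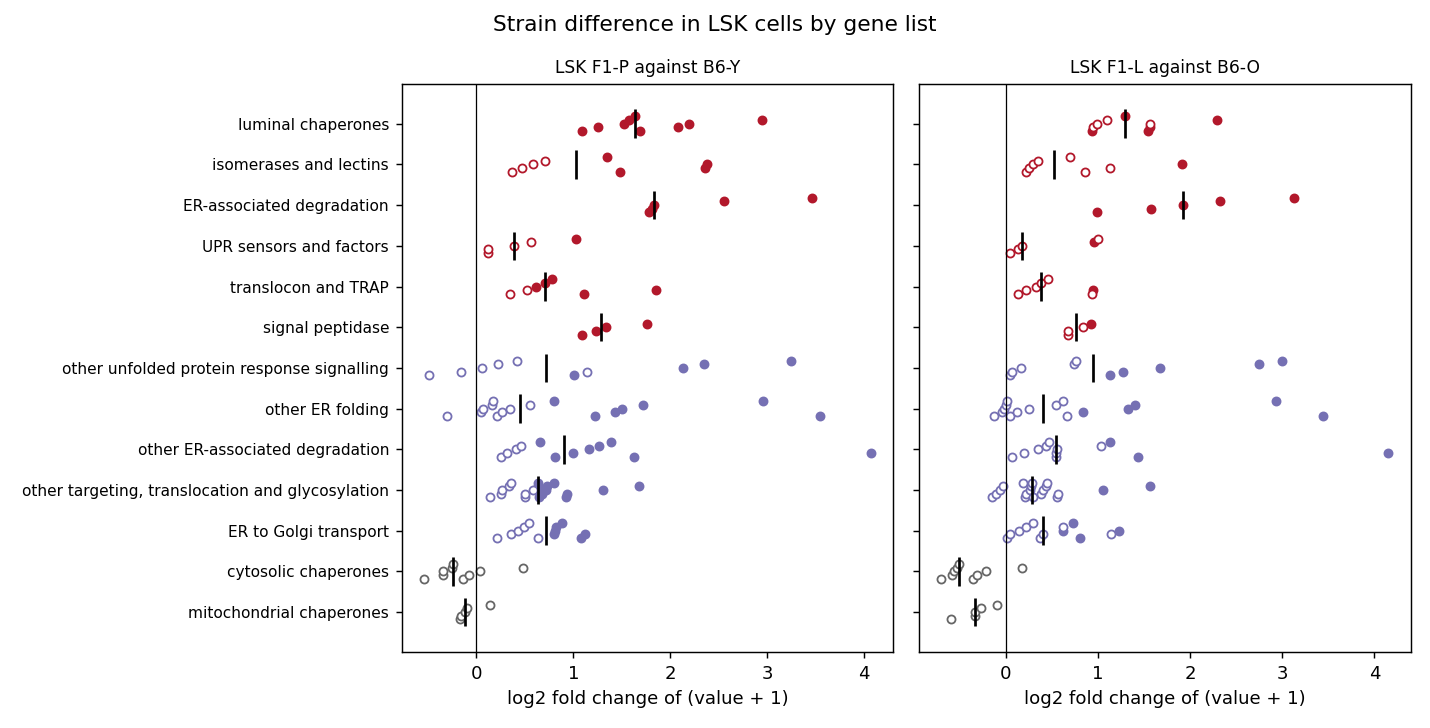
Log2 fold change on log2(value + 1) (horizontal axes) of F1-P against B6-Y (left) and F1-L against B6-O (right) for the 6 roles of the 38 genes (red), the other pathway lists (violet) and chaperones of the cytosol and mitochondria (grey), with a point per gene, filled where called, and a bar at the median of each list. ER-associated degradation has the highest medians, 1.83 and 1.92, and the cytosolic and mitochondrial chaperones have medians below 0.

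Within each LSK group most of the 38 genes had their highest value in the same library. F1-P replicate 1 was lowest for 35 and replicate 2 highest for 33 of the genes, F1-L replicate 3 was highest for 34, B6-Y replicate 3 highest for 29 and B6-O replicate 3 highest for 28. Each of these libraries but B6-Y replicate 3 had the matching rank in the summed plasma cell markers, where B6-Y replicates 2 and 3 were close. B6-Y replicate 1 was lowest for 24 genes and also lowest in that sum. The total of all values in a sample, which depends on the authors' scaling, had the matching rank in every library named so far. In B6-Y it was 832403, 868129 and 901704. The part of the scaling was not tested. Some other ranks did not match those of the marker sum. B6-O replicate 1 was lowest for 23 genes, while replicate 2 had the lowest marker sum, at 253 against 397. F1-L CMP replicate 3 was highest for 20 genes, while replicate 1 had the highest marker sum, at 110 against 108. In F1-P CMPs the highest value was split over the libraries, with 7, 14 and 17 genes, while replicate 1 was lowest for 29. The summed cytosolic chaperones were 5133, 3616 and 3886 in F1-P LSK, where replicate 1 was highest and not lowest. In the other LSK groups their highest library was replicate 3, as for most of the 38 genes, with 3916, 3997 and 4133 in F1-L, 4623, 4481 and 6434 in B6-Y and 4971, 5473 and 6784 in B6-O. In CMPs the sums of the 38 genes were 8178, 9906 and 9579 in F1-P and 8496, 7988 and 8919 in F1-L, at plasma cell marker sums far below those of every F1 LSK sample.

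**Figure D5:**
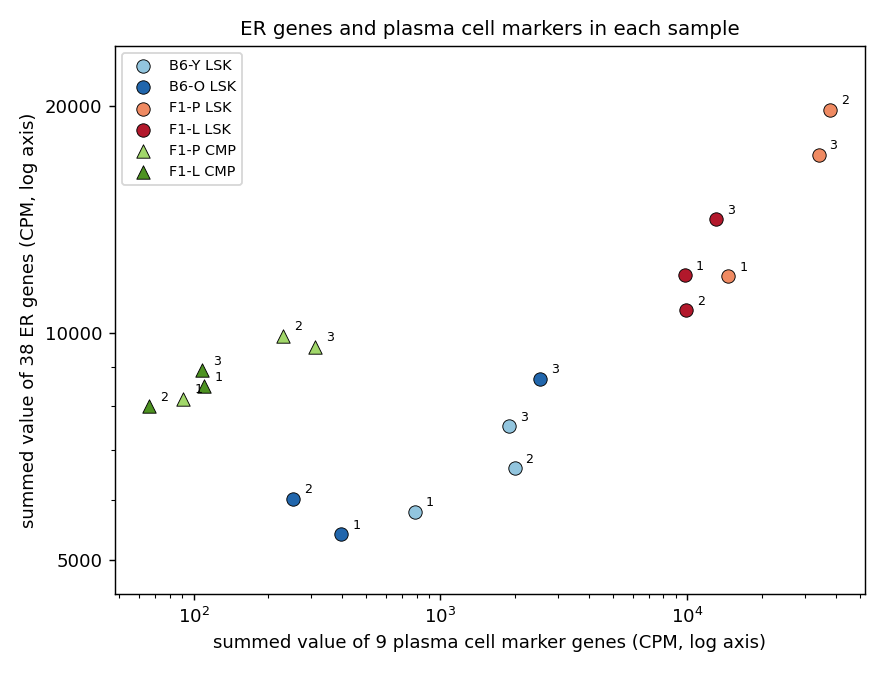
Each point is a sample, with the summed normalised value of 9 plasma cell markers on the horizontal axis and that of the 38 ER genes on the vertical axis (both CPM of a scaled library size, log scales), circles for LSK and triangles for CMPs, numbered by replicate. Both sums are higher in the 6 F1 LSK samples than in the 6 C57BL/6 LSK samples, and the CMPs lie apart, with low marker sums and ER gene sums above those of most C57BL/6 LSK samples.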

How the data were processed

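mRNA was sequenced in 12 LSK and 6 CMP samples (3 per group), assigned to groups and replicates by their labels. The sources give TruSeq v2 libraries, which do not mark strand, single-end reads, STAR 2.6 alignment to mm10 (the genome of C57BL/6J, for the F1 mice too), HTSeq counts and edgeR. The deposited values are a signal scaled by the authors, CPM of a library size times a factor per sample. They came out as whole reads within 0.1 of a read for 100% of values, so the count tests could be run as alternatives. Plain CPM had been assumed at the design stage, and limma was kept as the main test. LSK and CMP were normalised separately and were not tested against each other. Each comparison used its own samples, or all 12 LSK samples for the difference between age differences. Genes reaching a value of 1 in 3 or more samples were fitted with lmFit and eBayes (trend) on log2(value + 1), which understates the change of low genes, and p-values were adjusted over all genes by the Benjamini-Hochberg method. Differences between replicates exceeded counting noise for all 18 pairs (chi-square per degree of freedom 11.1 to 256), so no sample was counted as a repeat. The 38 genes and the other lists were chosen with earlier results of these data known. Every gene of the 38 was named, and values by sample were given for the gene of each role with the highest LSK mean and up to 4 called genes with the largest change. Of the other pathway genes, up to 8 called genes with the largest change were named. Gene positions are from GENCODE M21 (GRCm38), and per-kilobase levels use its exon lengths. Alternatives were a pseudocount of 0.1, no filter, a mean of at least 5, 2 other scalings, a replicate block, no fold change minimum, edgeR's 2 tests, DESeq2, 1 fit of all 12 LSK samples and leaving out each replicate. The fits were tested on simulated data with known changes. Software versions were DESeq2 1.42.0, limma 3.58.1 and edgeR 4.0.16 under R 4.3.3. Tables and plots were made in Python 3.11.15 with matplotlib 3.10.9, pandas 2.3.3, scipy 1.17.1 and numpy 2.4.6.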

Additional observations from a re-analysis of the deposited data

How the results depend on the processing

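No value of a called gene among the 38 changed sign under any alternative run. In F1-P against B6-Y the count called was 27 to 31 under the 11 alternatives other than leaving out a library, and 22 to 29 when a library was left out, with 22 genes called in every case. In F1-L against B6-O it was 14 to 23, the highest under DESeq2 (23), and 7 to 25 when a library was left out, with 7 genes called in every case. In CMPs it was 0 to 2 when a library was left out, and 1 under the edgeR likelihood ratio test and 1 under DESeq2. The other comparisons gave 0 under all alternatives. The causes were not tested. Replicate numbers are shared by the groups, but the deviations of same-numbered samples did not correlate above 0.1 for every pair in any comparison. The correlations were 0.33, 0.32 and 0.07 in F1-P against B6-Y and -0.45, -0.32 and 0.62 in CMPs. The main test did not treat the samples as paired. With 3 samples a group these values cannot show whether the numbers pair the samples. With the replicate number as a block the counts of the 38 were 28 in F1-P against B6-Y, 19 in F1-L against B6-O and 0 in the other comparisons. Over all genes the count depended more on the tool. In F1-L against F1-P it was 4 with limma (2 higher and 2 lower, or 0 and 2 after scaling by the median of ratios), 657 with the likelihood ratio test and 734 with DESeq2. In B6-O against B6-Y it reached 207 and in CMPs 351 with DESeq2 and 434 without F1-P replicate 1. In F1-P against B6-Y it was 2331, with 1579 at a mean of at least 5 and 927 without F1-P replicate 2. In F1-L against B6-O it was 1667, with 978 at a mean of at least 5 and 448 without F1-L replicate 3. Neither of the 2 other scalings moved the median of all genes by over 0.1. Both are built to bring the typical gene near no change, so this could hardly have come out otherwise. Plain CPM was not run. With 3 samples a group, small differences could not be detected.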
